A study of Homo sapiens with 6 samples.

Results

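SUM159 cells grown in dishes were compared between a population high and clones low in the integrin subunit ITGB4. SUM159 is an established triple-negative human breast cancer line. The comparison takes 3 of the 6 libraries of the series: 1 from cells whose genotype label reads ITGB4 high, and 2 from ITGB4 low control cells, clone 1 and clone 3. Libraries were placed in groups by their labels, all genes were considered, and the clones of control cells are not replicate cultures of 1 population. The ITGB4-high cells carry no clone number in the labels, so whether they are 1 clone or a mixed population is not given. All 3 were grown in petri dishes, per the series' design text, and the labels give no agent for them. The other 3 libraries, cells labelled ITGB4 low and sorted from mouse lungs (clones 1 and 3 with LM2 cells, a lung-seeking derivative of the breast line MDA-MB-231, and clone 1 from mice given bleomycin, a drug that injures the lung), entered the statistical model to estimate spread and are given beside some results.

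Integrin beta-4 pairs with integrin alpha-6 and binds laminin-332 in the basement membrane. In basal epithelial cells the pair sits in hemidesmosomes, junctions that tie keratin filaments to the matrix. Epithelial cells that shift towards a mesenchymal state lose keratins and junctions and make fibronectin, collagens and collagen-crosslinking enzymes, under regulators such as ZEB1, SNAI1 and TWIST1 and the growth factor TGF-beta. Breast lines of the mesenchymal, triple-negative kind can lie between these states, and ITGB4 is used as a surface marker of their more epithelial part.

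Levels are given in CPM, the reads of a gene per 1e6 reads of its library after TMM scaling, and, where 3 values are given for a gene, they are in the order ITGB4-high, control clone 1, control clone 3. Total counts were 13607953, 14013264 and 22222121 in that order, and a count of 0 allows a level of up to 0.219, 0.207 and 0.138 CPM (3 counts, counting error only). Mitochondrial transcripts took 5.35%, 5.39% and 6.10% of the counts. Markers of the line's class were read first. The EGF receptor EGFR stood at 782 CPM against 740.4 and 626, vimentin VIM at 3556 CPM against 3325 and 3596 and the hyaluronan receptor CD44 at 469 CPM against 422 and 494, while the hormone receptors ESR1 and PGR lay at or under 0.415 CPM in all 3. The 12 blood cell markers examined were all under 1 CPM, with the pan-leukocyte marker PTPRC at 0.0729 CPM against 0.207 and 0.184 and CD3E at 0.

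ITGB4 checks the labels. Its level was 383 CPM against 25.9 and 24.6, a mean of 25.2 ± 0.894 (SD, n = 2) in controls and a 15.2-fold difference (log2 fold change 3.92, SE 0.15, adjusted p = 0.0148, edgeR). The gene lies on chromosome 17 from 75721328 to 75757818 (hg38, plus strand). Because the cells are named for ITGB4, its level is a check and not a finding. The 3 lung libraries carry the label ITGB4 low as well, but their ITGB4 level was 470.2, 441 and 305 CPM, in the range of the ITGB4-high library and above both cultured controls.

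ITGB4-high cells held more RNA than both controls for the calcium-binding S100A2 and the keratin KRT75, which passed the test, and for COL17A1, the EGFR ligands TGFA and EREG, IL1A and IL1B, which did not. They held less RNA for TGFB2, FBN1 and LOX, which passed it, and for FN1, COL6A1, COL12A1 and WNT5A, which did not. Vimentin ranged from 3325 to 3596 CPM over the 3 libraries, and E-cadherin was at 3 reads or fewer. The values follow, after the size of the differences over all genes.

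The controls were close to each other and far from the ITGB4-high library. Of 13524 genes at 1 CPM or more in the controls, 282 (2.09%) differed 2-fold between the control clones. Of 13846 genes at 1 CPM or more in ITGB4-high cells or in the control mean, 2489 (18.0%) differed at least 2-fold in the same direction against each control, 804 higher (5.81%) and 1685 lower (12.2%) in ITGB4-high cells. This rule of a size has no test, since ITGB4-high is 1 library, and that library is in both ratios. At 4-fold 293 genes were higher (2.12%) and 707 lower (5.11%), and at 16-fold 68 were higher (0.491%) and 155 lower (1.12%). Lower genes outnumbered higher ones among genes at 1 to 10 CPM (823 against 417 of 4099), at 10 to 100 CPM (661 against 259 of 6853) and at 100 CPM or more (201 against 128 of 2894). In all, 1593 of the 13846 genes reached 1 CPM in 1 of the groups only, among them 330 of the 804 higher and 664 of the 1685 lower genes. Without regard to size, 44.9% of the 13846 genes were above both controls and 45.8% below both. The median log2 ratio of all these genes was 0.01 against control clone 1 and -0.02 against control clone 3, and these shares and medians are the background for those of the gene groups.

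**Figure D1:**
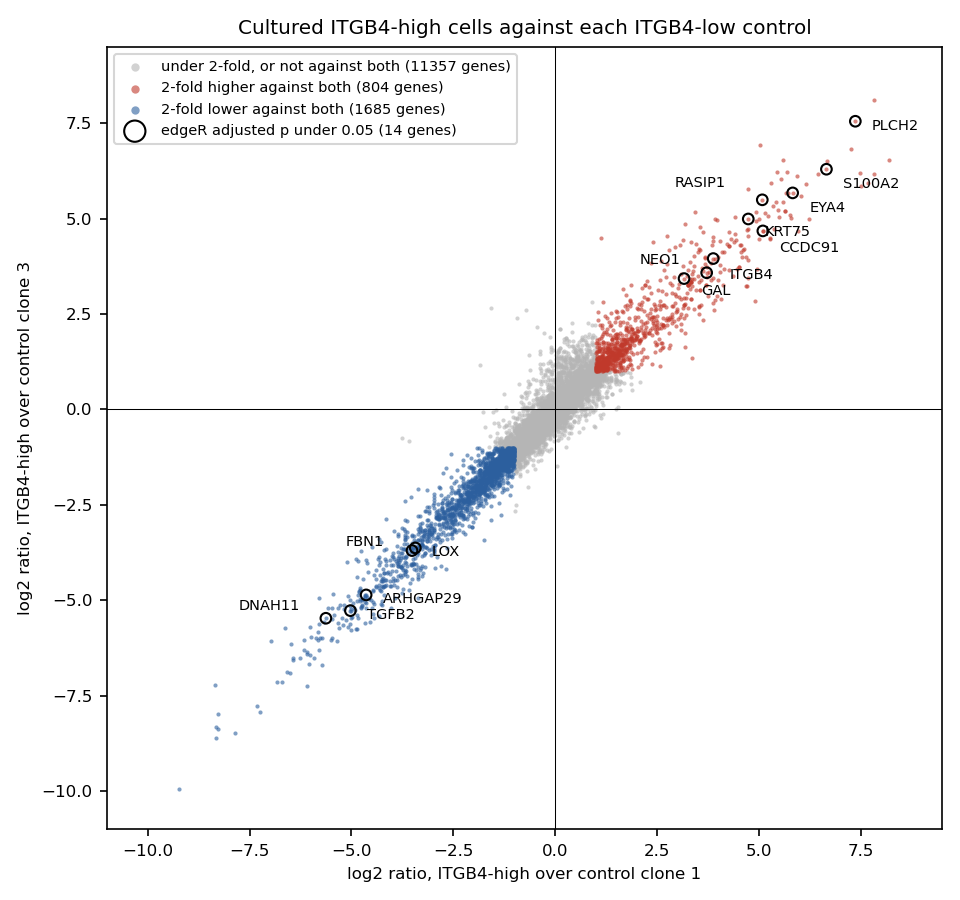
Each point is a gene at 1 CPM or more, with the log2 ratio of its level in ITGB4-high cells over control clone 1 on the x axis and over control clone 3 on the y axis. Red and blue points are the 804 genes at least 2-fold higher and the 1685 at least 2-fold lower against both controls, and the black rings are the 14 genes with an edgeR adjusted p under 0.05, which reach from PLCH2 at the upper right to DNAH11 at the lower left.

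The replicated test was edgeR's quasi-likelihood test over 15673 genes, with the spread taken from the control pair and the LM2 lung pair. It called 14 genes (0.0893% of those tested) at an adjusted p under 0.05, 9 higher (0.0574%) and 5 lower (0.0319%), and 3844 genes had an unadjusted p under 0.05. All 14 also passed the 2-fold rule. With the clone number as a block the count was 363, with RLE in place of TMM scaling 74 (31 higher, 43 lower), and without control clone 1 or control clone 3 it was 0 (1662 and 1405 genes at an unadjusted p under 0.05). The LM2 pair had a biological coefficient of variation of 0.318 against 0.0787 for the control pair. A fit on the 3 cultured libraries alone, in which the spread comes from the control pair only, called 6809 of 14924 genes (45.6%). In every fit of these libraries the spread of ITGB4-high cells is assumed to be that of other groups, and a difference between cell states cannot be told apart from a difference between this library and others of its kind.

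S100A2, a calcium-binding protein of basal epithelial cells, was among the 9 genes called higher. Its level was 111 CPM against 0.968 and 1.29 (log2 fold change 6.59, SE 0.23, adjusted p = 0.0148, edgeR). The ITGB4-high library was far above both controls, which were near each other. KRT75, a type II keratin best known from the hair follicle, stood at 75.5 CPM against 2.7 and 2.25 (log2 fold change 4.94, SE 0.19, adjusted p = 0.0148, edgeR). The neuropeptide gene GAL was at 141 CPM against 15.6 and 12.9 (log2 fold change 3.31, adjusted p = 0.0414, edgeR), and NEO1, a receptor for netrins and repulsive guidance molecules, at 34.4 CPM against 2.49 and 2.75 (3.71, adjusted p = 0.0467). For RASIP1, an effector of the small GTPase Rap1, the values were 16 CPM against 0.346 and 0.23 (5.80, adjusted p = 0.0379, edgeR). CCDC91, a protein of vesicle traffic, was at 11.4 CPM against 0.207 and 0.321 (5.34, adjusted p = 0.0467, edgeR, or 0.0507 without the bleomycin library). The controls held 5 reads each of RASIP1, and 3 and 7 of CCDC91. PLCH2, a phospholipase C, had 445 reads in ITGB4-high cells and 1 in each control, a 588-fold ratio with an exact 95% counting interval of 162 to 4869 (adjusted p = 0.0414, edgeR). EYA4, a transcriptional coactivator with phosphatase activity, had 152 reads against 1 and 2, a 134-fold ratio with an interval of 44.9 to 656 (adjusted p = 0.0467, edgeR).

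The 5 genes called lower included 3 of the matrix and its growth factors. TGFB2, the TGF-beta 2 ligand, fell from 118 and 140.2 CPM in the controls to 3.5 CPM in ITGB4-high cells (log2 fold change -5.20, SE 0.25, adjusted p = 0.0277, edgeR). Fibrillin FBN1, which forms microfibrils, stood at 3.64 CPM against 42.9 and 48.9 (log2 fold change -3.65, SE 0.23, adjusted p = 0.0414, edgeR). Lysyl oxidase LOX, which crosslinks collagen and elastin, stood at 4.45 CPM against 49.2 and 56.5 (log2 fold change -3.57, SE 0.23, adjusted p = 0.0414, edgeR). The other two were ARHGAP29, a GTPase-activating protein, at 3.72 CPM against 95.7 and 112 (log2 fold change -4.80, adjusted p = 0.0414, edgeR), and DNAH11, a dynein heavy chain of cilia, at 0.437 CPM against 27.8 and 25 (log2 fold change -5.89, adjusted p = 0.0414, edgeR). The ITGB4-high level of these 5 lay 11.9- to 60.3-fold below the control mean, LOX at the lower and DNAH11 at the upper end. The genes called higher lie on chromosomes 1 (PLCH2 and S100A2), 6 (EYA4), 11 (GAL), 12 (CCDC91 and KRT75), 15 (NEO1), 17 (ITGB4) and 19 (RASIP1), and those called lower on chromosomes 1 (ARHGAP29 and TGFB2), 5 (LOX), 7 (DNAH11) and 15 (FBN1).

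The sequences before the start of S100A2, KRT75 and TGFB2, which have the smallest p among the called genes with an entry, are shown because the 3 differ so far in level between cells of 1 line. They are the 250 bases upstream of a RefSeq start (GRCh38.p14), at chr1:153565845-153566094 on the minus strand for S100A2, chr12:52434372-52434621 on the minus strand for KRT75 and chr1:218345086-218345335 on the plus strand for TGFB2. Capitals mark TGANTCA, the AP-1 site, and CACCTG or its reverse complement CAGGTG, the E-box that ZEB1 and SNAI1 bind, both strands having been searched.
S100A2: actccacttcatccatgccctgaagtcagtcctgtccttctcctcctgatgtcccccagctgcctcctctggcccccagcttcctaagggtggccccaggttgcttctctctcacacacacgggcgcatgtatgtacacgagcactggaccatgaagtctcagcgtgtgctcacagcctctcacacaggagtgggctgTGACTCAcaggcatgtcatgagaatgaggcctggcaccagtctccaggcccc
KRT75: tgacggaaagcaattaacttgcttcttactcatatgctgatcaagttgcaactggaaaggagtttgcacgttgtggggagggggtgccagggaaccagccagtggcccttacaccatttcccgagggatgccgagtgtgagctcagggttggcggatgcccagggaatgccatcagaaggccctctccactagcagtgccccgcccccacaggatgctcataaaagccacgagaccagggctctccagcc
TGFB2: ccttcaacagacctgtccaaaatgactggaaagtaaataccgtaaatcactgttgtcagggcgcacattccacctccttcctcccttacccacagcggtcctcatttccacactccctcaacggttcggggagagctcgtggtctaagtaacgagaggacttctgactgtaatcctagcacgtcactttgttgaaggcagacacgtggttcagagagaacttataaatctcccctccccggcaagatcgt
The S100A2 window held 1 TGANTCA match that begins 52 bases before the start, and the windows of KRT75 and TGFB2 held neither motif. RefSeq lists another start of S100A2, whose window held CACCTG 18 bases before it. Windows were listed for 11 of the 14 called genes, 17 windows in all, of which 4 held the E-box and 1 the AP-1 site. Among all 35116 RefSeq windows the share was 17.5% for the E-box and 6.57% for the AP-1 site. The shares were 20.7% and 7.54% for the 743 windows of genes 2-fold higher, 17.2% and 5.34% for the 1930 windows of genes 2-fold lower, and 15.3% and 4.59% for the 14962 windows of all genes at 1 CPM or more. A match describes letters only.

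**Figure D2:**
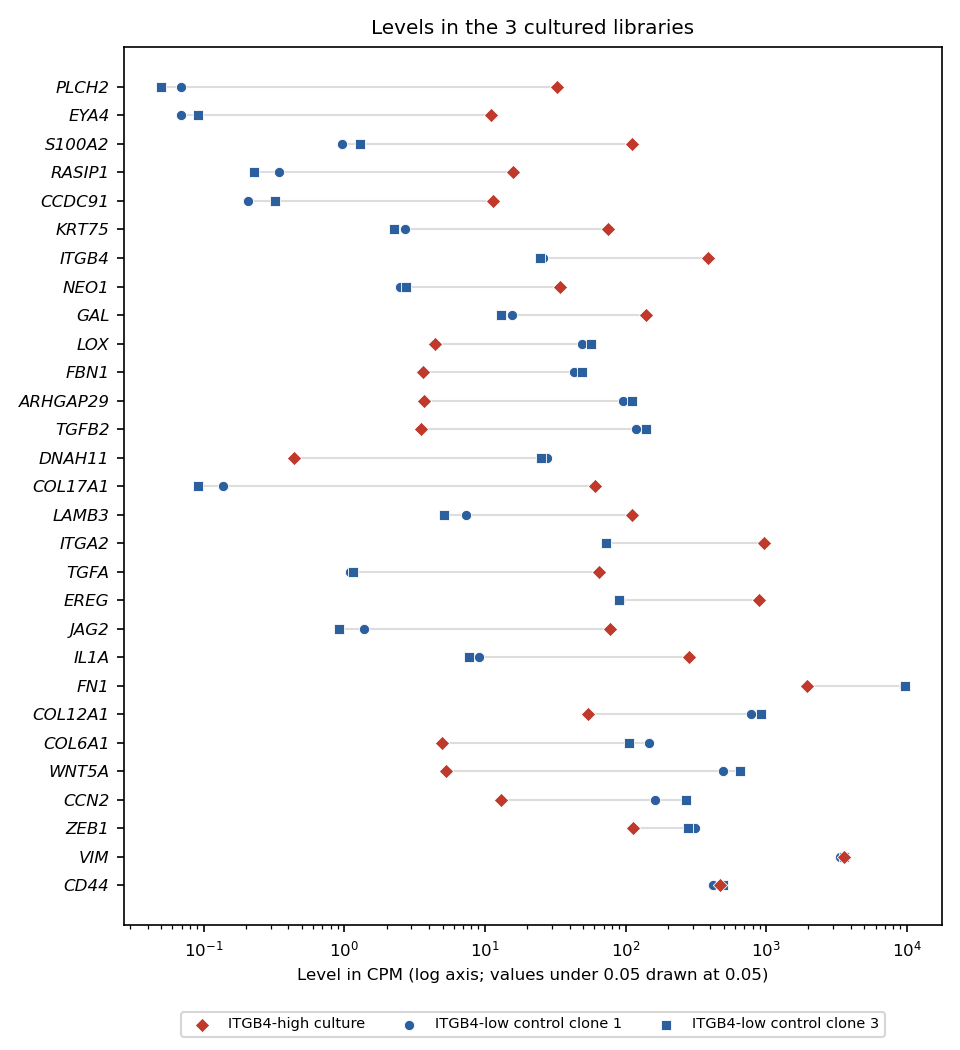
Level in CPM on a log axis for the 14 called genes and 15 genes of the groups described, 1 row each, with the ITGB4-high library as a diamond and control clones 1 and 3 as circle and square. In the 9 genes called higher and the 5 called lower the controls lie close together and the ITGB4-high library apart, while VIM and CD44 lie together in all 3.

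Groups of genes were then described by the 2-fold rule. The members of these groups that edgeR called over all genes were ITGB4, KRT75, S100A2, NEO1 and GAL, higher, and TGFB2, FBN1 and LOX, lower, so other members are given as values. A member that reached 1 CPM only in the group where it is high had to differ. Such members are counted separately as one-sided, and their number does not speak for a list's direction. The list medians and the counts of members above or below both controls do include them. Genes of the hemidesmosome and its ligand laminin-332 were examined first. All 9 reached 1 CPM, and 4 were 2-fold higher against both controls (1 one-sided, COL17A1) and 0 lower. COL17A1, the transmembrane collagen of hemidesmosomes, was nearly silent in the controls, at 0.138 and 0.0918 CPM (2 reads each), and stood at 60.3 CPM in ITGB4-high cells, a 546-fold ratio with a counting interval of 213 to 2009 (adjusted p = 0.0608, edgeR). The laminin-332 chain LAMB3 stood at 111 CPM against 7.4 and 5.09 (adjusted p = 0.216, edgeR). LAMA3, also a laminin-332 chain, was below both controls, at 22.3 CPM against 42.2 and 35.1, so the chains of this ligand did not move together. ITGA6, the partner chain of ITGB4, was at 318 CPM against 155 and 162, just short of 2-fold against control clone 3, and the linker proteins PLEC (426 CPM against 345 and 357) and DST (678 CPM against 758 and 737) were near control. The list's median log2 ratio was 1.03 and 0.97 against control clones 1 and 3.

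Other integrins differed in both directions. Of 18, 13 reached 1 CPM, 2 were 2-fold higher and 6 lower (2 one-sided). The collagen-binding alpha chains differed among themselves: ITGA2 was higher, at 965 CPM against 72.3 and 72.3, while ITGA1 was at 22.3 CPM against 70.8 and 74.5 and ITGA11 at 2.11 CPM against 42.7 and 48.7. ITGA3, a laminin-binding alpha chain, was also higher, at 735 CPM against 206 and 227. The beta chain ITGB3, of the vitronectin receptor, was lower at 1.02 CPM against 5.39 and 5.97, and ITGB8, which activates latent TGF-beta, at 4.37 CPM against 13.3 and 20.4. ITGB1, shared by most of these pairs, was at 586 CPM against 655 and 784. Among 12 other laminin and basement membrane genes 8 reached 1 CPM, 1 was lower (LAMA1, at 15.2 CPM against 32.6 and 35.4) and 0 higher. The lower share of these 8 was 12.5%, near the 12.2% of all genes.

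Keratins stood on both sides, and E-cadherin was not detected above 3 reads. Of 17 keratins 9 reached 1 CPM and 4 were 2-fold higher: KRT75 and, one-sided, the 3 keratins KRT6A (20.04 CPM against 0.138 and 0.505), KRT14 (1.46 CPM against 0.0692 and 0.0459) and KRT17 (2.77 CPM against 0 and 0.0918). KRT8, a keratin of simple epithelia, was lower, at 29.4 CPM against 77.9 and 92.5, and its partner KRT18 was at 86.7 CPM against 80.9 and 83.8. The basal keratin KRT5 was at 3.28 CPM against 2.28 and 2.66. The cadherin CDH1 was at 0.0729 CPM against 0.138 and 0 and EPCAM at 0 CPM against 0 and 0.138, at most 3 reads in any of these libraries. Of 27 epithelial junction genes 17 stayed under 1 CPM. Among the other 10, 3 were 2-fold higher and 0 lower, with the tight junction claudin CLDN1 at 77.2 CPM against 5.95 and 5.42 and, both one-sided, the plakophilin PKP2 at 1.53 CPM against 0 and 0.0459 and the nectin NECTIN4 at 3.28 CPM against 0.138 and 0.0918. The desmosomal genes DSP (80.0 CPM against 55.4 and 48.7) and DSG2 (344 CPM against 234 and 204) were under 2-fold. Of 20 regulators of epithelial fate 12 stayed under 1 CPM, among them GRHL2, OVOL1 and OVOL2. TP63, the master regulator of basal epithelium, stood at 101 CPM against 35.8 and 50.3, past 2-fold against control clone 1 only, and KLF5 at 204 CPM against 107 and 108.

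Regulators of the mesenchymal state split. Of 13, 10 reached 1 CPM, 3 were 2-fold lower and 1 higher. The repressor ZEB1 stood at 112 CPM against 311 and 278 (log2 fold change -1.39, adjusted p = 0.0608, edgeR), TWIST1 at 2.33 CPM against 10.9 and 11.2 and TWIST2 at 16 CPM against 37.3 and 46.7. FOXC2, a forkhead factor of mesenchymal cells, was the higher one, at 101 CPM against 27.1 and 28.4, and SNAI2 was at 76 CPM against 43.9 and 42.4, SNAI1 at 1.75 CPM against 1.52 and 1.15 and ZEB2 at 42.6 CPM against 63.9 and 70.9. Surface and cytoskeletal markers split too: of 14, 11 reached 1 CPM, 6 were 2-fold lower (1 one-sided, PDGFRB) and 2 higher. N-cadherin CDH2 was at 67.9 CPM against 247 and 217, the neural adhesion molecule NCAM1 at 2.7 CPM against 125 and 127, the metastasis-associated calcium-binding protein S100A4 at 1.31 CPM against 45.8 and 62.5 and the actin-bundling TAGLN at 1.17 CPM against 9.06 and 14.3. The PDGF receptors stood on opposite sides, with PDGFRB at 0.875 CPM against 28.1 and 26.9 and PDGFRA at 129.5 CPM against 32.5 and 35.1. Vimentin did not separate the cells, as the values above show.

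Matrix genes made the largest group on the lower side. Of 38 examined, 27 reached 1 CPM, all in both groups. Of these 17 were 2-fold lower and 1 higher, and the median log2 ratio was -2.21 and -2.32. Fibronectin FN1 stood at 1941 CPM against 9623 and 9686 (log2 fold change -2.31, SE 0.23, adjusted p = 0.0524, edgeR, over the threshold). Both collagen VI chains COL6A1 (4.96 CPM against 147 and 106) and COL6A2 (6.78 CPM against 187 and 90.3) were lower, as was COL12A1 of fibril surfaces (53.7 CPM against 778 and 925). COL5A1, which starts collagen fibrils, was at 39.4 CPM against 472 and 538, whereas COL5A2 was the 1 member 2-fold higher, at 25.5 CPM against 4.43 and 4.59. LOX had its relatives LOXL1 (2.62 CPM against 74.3 and 99.3) and LOXL2 (28.1 CPM against 209.6 and 179) with it, and the collagen lysyl hydroxylase PLOD2 was at 9.11 CPM against 54.2 and 65.7. Fibulin FBLN1 stood at 114 CPM against 789 and 1106 and the collagen-binding SPARC at 118 CPM against 395 and 514. Collagen I chain COL1A1 was at 32.2 CPM against 36.2 and 29.8. Basement membrane collagens were near control, with COL4A1 at 91.7 CPM against 91.7 and 104 and COL4A2 at 144 CPM against 154 and 183. Tenascin TNC was at 275 CPM against 142 and 115, past 2-fold against control clone 3 only.

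Enzymes that cut matrix were on both sides. Of 24 metalloproteinases and inhibitors 15 reached 1 CPM, 7 were 2-fold lower (3 one-sided) and 2 higher (1 one-sided). The gelatinase MMP2 was at 41 CPM against 301 and 398, the membrane-bound MMP16 at 2.55 CPM against 20.1 and 18.1 and MMP15 at 1.75 CPM against 7.68 and 8.31, and the aggrecanase-family ADAMTS1 at 2.7 CPM against 15.1 and 25.8. The inhibitor TIMP3 met the 2-fold rule at 64.7 CPM against 29.4 and 2.75, but its controls lay far apart. The plasminogen system, which activates proteases at the cell surface, was read together with related serpins. Of these 11 genes 10 reached 1 CPM, and 3 were higher and 3 lower (1 one-sided on each side). The activators PLAT (127 CPM against 43.6 and 43.4) and PLAU (4.52 CPM against 0.277 and 0.597) and the basal epithelial serpin SERPINB5 (70.1 CPM against 19 and 19.2) were higher, and the protease nexin SERPINE2 (6.78 CPM against 29.3 and 29.8) and the collagen chaperone SERPINH1 (123 CPM against 309 and 283) were lower. Among S100 genes 10 of 16 reached 1 CPM, with S100A2, S100A9 (5.69 CPM against 1.66 and 1.51), S100A16 (155 CPM against 58.3 and 62) and S100P (15.8 CPM against 3.18 and 1.42) 2-fold higher and S100A3 and S100A4 lower.

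**Figure D3:**
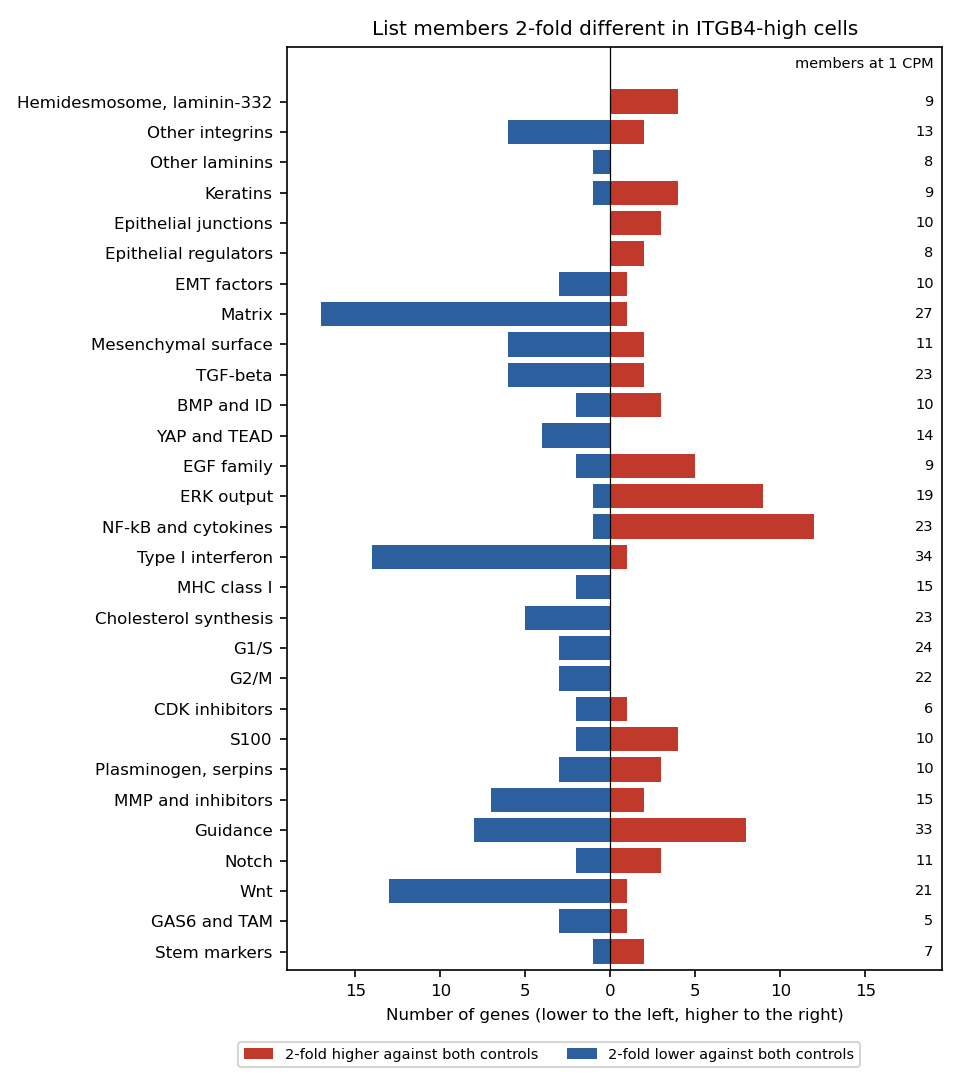
Number of members of each gene list at least 2-fold higher (red, to the right) and at least 2-fold lower (blue, to the left) in ITGB4-high cells against both controls, with the number of members at 1 CPM or more at the right edge. The matrix list has 17 lower and 1 higher, the NF-kB and cytokine list 12 higher and 1 lower.

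Growth factor pathways separated by ligand. The EGF family signals through the receptor EGFR to ERK, and of its 11 genes 9 reached 1 CPM, 5 were 2-fold higher and 2 lower (1 one-sided on each side, EPGN and BTC). All 5 higher genes were EGFR ligands: TGFA at 64.8 CPM against 1.11 and 1.15 (adjusted p = 0.0608, edgeR), EREG at 886 CPM against 90.9 and 90.0, AREG at 46.7 CPM against 12.9 and 10.1, HBEGF at 28.1 CPM against 5.81 and 6.89 and EPGN at 12.8 CPM against 0.277 and 0.459. Those lower were BTC, also an EGFR ligand, at 0.875 CPM against 3.11 and 3.81 and NRG1, a ligand of ERBB3 and ERBB4, at 1.68 CPM against 47 and 56.7. EGFR itself was near control. Of 19 genes that ERK signalling induces, 9 were 2-fold higher and 1 lower, with the phosphatase DUSP5 at 234 CPM against 19.3 and 22.1, the feedback inhibitor SPRY4 at 567 CPM against 62.9 and 74.5, PHLDA1 at 257 CPM against 27 and 30.9 and the AP-1 subunit FOSL1 at 176 CPM against 30.8 and 36.1. SPRY1, a relative of SPRY4, was the lower one, at 2.92 CPM against 15.3 and 21.5, and EGR1 was at 280.4 CPM against 443 and 590.1. The median log2 ratio of these 19 was 1.04 and 0.92.

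Inflammatory genes stood mostly on the higher side. Of 30 NF-kB and cytokine genes 23 reached 1 CPM, 12 were 2-fold higher (3 one-sided, CCL5, CSF3 and IL1B) and 1 lower, with a median log2 ratio of 1.61 and 1.36. Interleukins IL1A and IL1B stood at 282 CPM against 9.13 and 7.67 and at 29.2 CPM against 0.622 and 1.19. The neutrophil-attracting chemokine CXCL8 was at 128 CPM against 10.9 and 19.3, CXCL2 at 44.8 CPM against 9.54 and 10.6, the granulocyte growth factor CSF3 at 35.2 CPM against 0.622 and 0.413, the IL6-family cytokine LIF at 32.7 CPM against 3.46 and 8.03 and the prostaglandin-forming enzyme PTGS2 at 17.1 CPM against 0.761 and 1.24. IL6 was at 4.08 CPM against 2.01 and 2.8, and CSF1, a macrophage growth factor, was the lower gene at 28.1 CPM against 94.9 and 117. Cytokine genes also varied between lung libraries of 1 group (CSF3 was at 117 CPM in the first and 0.319 in the other LM2 library), and that spread enters the test.

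TGF-beta signalling showed 2-fold lower levels for 6 of the 23 of 27 genes at 1 CPM or more, and higher levels for 2. Besides TGFB2, the ligand TGFB3 (1.97 CPM against 5.53 and 5.37), the coreceptor TGFBR3 (32.6 CPM against 191 and 248), the target TGFBI (923 CPM against 6336 and 7703) and the follistatin-like FSTL1 (69.7 CPM against 925 and 1291) were lower. TGFB1 was at 66.3 CPM against 47.1 and 51.9, its target SMAD7 at 11.1 CPM against 4.84 and 5.23, and the pseudoreceptor BAMBI, one of the 2 higher genes, at 14.3 CPM against 2.14 and 2.02. The list's medians were -0.07 and -0.49. Of 14 BMP and ID genes 10 reached 1 CPM, 3 were higher and 2 lower (1 one-sided, BMP4). ID1 (61.1 CPM against 8.58 and 11.3) and ID3 (50.8 CPM against 8.02 and 10.9), targets of BMP signalling, were higher with the ligand BMP2 (7.94 CPM against 3.04 and 2.57). Not all such targets were higher. ID2 had 33 reads against 46 and 114, a ratio to control of 0.545. SMAD6, counted with the TGF-beta genes, had 18 reads against 80 and 147, a ratio of 0.209. The ligand BMP4 had 0 reads in ITGB4-high cells against 20.2 and 27.7 CPM, at least 113-fold lower against the floor of 3 counts.

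Of 30 Wnt genes 21 reached 1 CPM, 13 were 2-fold lower and 1 higher. Of the 13, 7 were one-sided, among them FZD2, DKK1, NKD2 and AXIN2. The non-canonical ligand WNT5A stood at 5.32 CPM against 497 and 652, a 111-fold ratio with a counting interval of 88.1 to 141 (adjusted p = 0.0792, edgeR). The receptor FZD2 was at 0.292 CPM against 6.64 and 5.83, the inhibitors DKK1 and NKD2 at 0.583 CPM against 13.1 and 17.8 and at 0.51 CPM against 17.5 and 16.9, and the canonical target AXIN2 at 0.583 CPM against 6.92 and 7.53. The higher gene was RNF43, which removes Frizzled receptors, at 4.52 CPM against 1.66 and 0.872. Of 14 genes of the YAP and TEAD axis, which reads cell shape and matrix stiffness, 4 were lower (1 one-sided, ANKRD1) and 0 higher. CCN2 was at 13 CPM against 163 and 269, CCN1 at 82.3 CPM against 395 and 564 and ANKRD1 at 0.292 CPM against 7.61 and 10.1, while YAP1 itself was at 259 CPM against 390.1 and 396 and WWTR1 at 36.6 CPM against 36.6 and 44.2.

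Ligand and receptor genes of cell contact also differed. Of 16 Notch genes 11 reached 1 CPM, 3 were higher and 2 lower, led by the ligand JAG2 at 77.9 CPM against 1.38 and 0.918 (log2 fold change 6.10, SE 0.58, adjusted p = 0.0514, edgeR). The Notch target HES1 was at 80.3 CPM against 9.34 and 18.9 and NOTCH1 at 88.1 CPM against 42.5 and 41.9, with NOTCH3 on the lower side at 5.32 CPM against 13.3 and 14.4. Of 42 guidance genes 33 reached 1 CPM, with 8 higher (2 one-sided) and 8 lower (1 one-sided). NEO1 passed the test, the plexin PLXNA2 stood at 177 CPM against 13.8 and 11 and SEMA3E at 11.6 CPM against 0.138 and 0.184, and SEMA3C (54.5 CPM against 557 and 640.0) and SEMA5A (17.7 CPM against 243 and 319) were lower. GAS6, its relative PROS1 and the GAS6 receptor AXL were each lower. In that order they stood at 16.8 CPM against 147 and 171, 53.9 CPM against 233 and 288 and 92.7 CPM against 478 and 492. The other receptors of the AXL family were not lower, with the one-sided MERTK at 4.37 CPM against 0.899 and 0.367 and TYRO3 at 55.5 CPM against 30.0 and 22.8.

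Type I interferon genes were more often lower than higher. Of 37 measured, 34 reached 1 CPM, of which 27 were below both controls and 5 above both, beside 45.8% and 44.9% of all genes. By 2-fold 14 were lower (3 one-sided) and 1 higher (one-sided), and the median log2 ratio was -0.83 and -1.03. The signal transducer STAT2 (28.5 CPM against 144 and 141) was lower with IFI6 (2.26 CPM against 8.85 and 13.9), IFI44L (11.5 CPM against 47.7 and 56) and SAMD9L (4.96 CPM against 26 and 22). OAS3 was at 24.6 CPM against 11.6 and 16.1 and ISG15 at 2.19 CPM against 2.7 and 2.48, so not each member was lower. Of 15 antigen presentation genes of MHC class I, 2 were 2-fold lower (13.3%, near the 12.2% of all genes) and 0 higher. Without regard to size 10 were below both controls and 4 above both. TAP2 and ERAP1 had ratios to control of 1.28 and 1.27. The transactivator NLRC5 was at 11.4 CPM against 33.6 and 33.6, HLA-B at 212 CPM against 388 and 399.7 and B2M at 894 CPM against 1295 and 1422.

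Cell cycle genes differed little in size. All 22 G2/M genes were lower in ITGB4-high cells than in each control (21 of 22 when scaled by library totals), beside 45.8% of all genes, 3 of them by 2-fold: the mitotic kinases CDK1 (66.7 CPM against 135 and 166) and AURKB (8.24 CPM against 27.1 and 31.2) and the kinesin KIF20A (43.5 CPM against 109 and 154). The proliferation marker MKI67 was at 709 CPM against 715 and 852. The medians were -0.30 and -0.45. Of 24 G1/S genes 3 were 2-fold lower, among them thymidylate synthase TYMS at 15.7 CPM against 91.4 and 133, and 0 higher. The 2-fold lower share was 13.6% of G2/M and 12.5% of G1/S genes, near the 12.2% of all genes. The inhibitor CDKN1A, which p53 induces, was at 72.2 CPM against 13.8 and 18.6, and CDKN2C at 8.16 CPM against 39.3 and 60.0. Of 23 cholesterol synthesis genes 5 were lower and 0 higher, including INSIG1 (7.36 CPM against 33.4 and 55.1) and STARD4 (10.1 CPM against 34 and 38.4), while the squalene epoxidase SQLE was at 115 CPM against 61.6 and 84.7. The control clones differ among themselves here, with a median log2 ratio of 0.35 for clone 3 over clone 1.

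Stem cell markers of the breast did not form a direction. Of 12, 7 reached 1 CPM, 2 were higher (1 one-sided, ALDH1A1) and 1 lower (one-sided, CD24). ALDH1A1, the aldehyde dehydrogenase behind the stem cell dye assay, had 313 reads in ITGB4-high cells and 0 and 4 in controls (22.8 CPM against 0 and 0.184), a 207-fold ratio with an interval of 79.9 to 763 (adjusted p = 0.0581, edgeR). The protein C receptor PROCR was at 87.7 CPM against 36.2 and 42.3. CD24 had 0 reads against 12.5 and 6.66 CPM, at least 41.1-fold lower against the floor, and CD44 was near control, as given above.

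Genes at the extremes were chosen by the smaller of their ratios against the 2 controls, at 20 CPM or more in the higher group. On the higher side, besides PLCH2, S100A2, COL17A1, ALDH1A1, JAG2, TGFA and CSF3, stood the myeloid receptors TREM1 (37.6 CPM against 0 and 0.275) and FCAR (29.1 CPM against 0.207 and 0.275), the purine enzyme XDH (69 CPM against 0.207 and 1.01), the urate transporter SLC2A9 (64.5 CPM against 1.38 and 1.38), the glucosyltransferase POGLUT3 (24.8 CPM against 0.277 and 0.23), RIMKLB (24 CPM against 0.207 and 0.275), HTATIP2 (23.3 CPM against 0 and 0.275) and OLAH (50.7 CPM against 1.04 and 0.551). The myeloid receptors stood without other blood markers: the 12 summed to 1.53, 2.21 and 1.33 CPM, and TYROBP, the adaptor of TREM1, was at 0 CPM against 0 and 0.0918. On the lower side the largest difference was CEMIP, a hyaluronan-degrading protein, with 2 reads in ITGB4-high cells and 165 and 271 CPM in controls, 1567-fold lower with an interval of 434 to 12940. ARNT2, a bHLH-PAS factor, ILDR2 and EFHD1 had 0 reads, at least 186-, 187- and 127-fold lower than controls at 40.7 and 40.7, 39.1 and 42.2, and 41.5 and 18.8 CPM. The others were the cytochrome CYP4B1 (0.51 CPM against 204 and 249), the Wnt inhibitor APCDD1 (0.146 CPM against 85.1 and 69.3), the matrix protein SVEP1 (0.292 CPM against 96.8 and 150.4), the GDNF receptor GFRA1 (0.219 CPM against 52.2 and 83.9), the chemokine-binding ACKR1 (0.583 CPM against 80.7 and 100.5), the adhesion molecule CADM3 (7.43 CPM against 719 and 888), the procollagen enhancer PCOLCE (1.46 CPM against 137 and 151), PLAC8 (0.437 CPM against 48.7 and 51.2) and the chemokine CXCL12 (0.292 CPM against 31.9 and 38.5), with BMP4 and WNT5A. The 5 genes under 3 reads in ITGB4-high cells and at 20 CPM or more in both controls were APCDD1, ARNT2, BMP4, CEMIP and ILDR2, and the 2 with the reverse pattern were COL17A1 and PLCH2.

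Markers of other cell types were read beside these results. Of 7 endothelial markers 2 reached 1 CPM. The VEGF receptor KDR stood at 3.06 CPM against 70.7 and 105, but CDH5 was at 0 in all 3 libraries and VWF at 0 CPM against 0.207 and 0.367, and the summed level was 6.2, 73.1 and 108 CPM, most of it KDR in the controls. Of 9 fibroblast markers 8 reached 1 CPM and 4 were lower (2 one-sided) and 1 higher, with LUM at 0.0729 CPM against 0 and 0.138. The summed levels were 212, 180.0 and 217 CPM, but most of the ITGB4-high sum was the higher gene, PDGFRA, with a ratio to control of 3.80. The lower genes were COL3A1 and CSPG4, with ratios of 0.0546 and 0.251, and the one-sided PDGFRB and DPT. Of 12 luminal markers 6 reached 1 CPM, 3 were lower (1 one-sided, MUC1) and 0 higher, GATA3 at 5.76 CPM against 12.7 and 14.5, MUC1 at 0.656 CPM against 6.29 and 9.82 and KRT8. Among 10 neural and neuroendocrine markers GAL and the one-sided CHGB (6.78 CPM against 0.346 and 0.872) were higher and NCAM1 lower, and CHGA was at 0 in all 3. In bulk RNA fewer cells with a transcript and less transcript per cell cannot be told apart. A difference in the share of cell states within a culture was not tested.

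Chromosome position went with part of the differences. Over 198 protein-coding genes of the short arm of chromosome 17 the median log2 ratio was -0.86 against control clone 1 and -0.90 against control clone 3, with 0.02 between the controls. Of these 72 (36.4%) were 2-fold lower, against 12.2% of all genes. Over 350 genes of 3q the median was 0.36 and 0.34, and 35 of the 350 (10%) were 2-fold higher, against 5.81% of all genes. That share was not particular to 3q. It was 10.3% on 18q, with medians of -0.07 and -0.11, and 10.4% on 20p, with medians of 0.10 and 0.21. Both arms of chromosome 2 were shifted slightly down, at -0.26 and -0.28 for 2p (322 genes) and -0.24 and -0.25 for 2q (471 genes), and 18p at -0.31 and -0.33 (45 genes). Of the 2-fold genes named here AURKB and XAF1 lie on 17p, and CLDN1, HES1, FBXO45, FSTL1, PLOD2 and PROS1 on 3q, the last 3 of them lower. The part of DNA copy number in these shifts was not tested.

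**Figure D4:**
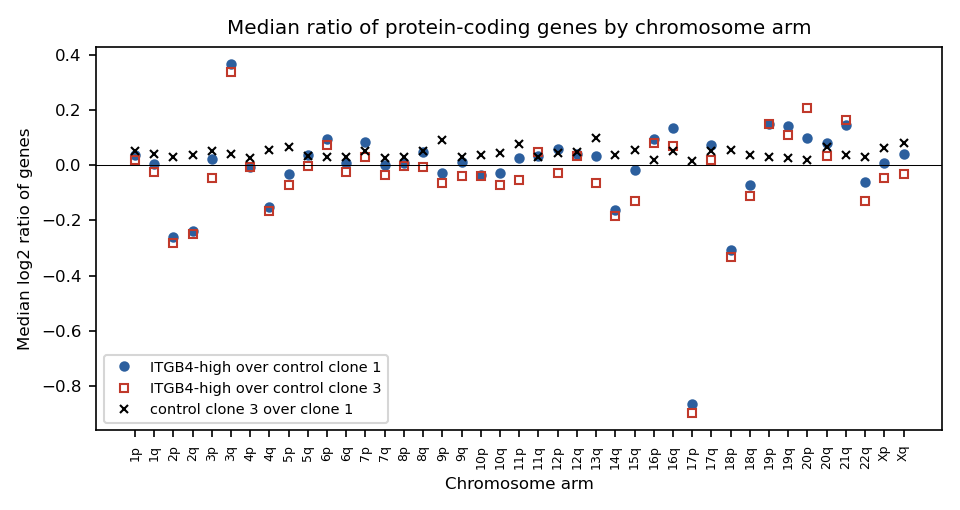
Median log2 ratio of protein-coding genes for each chromosome arm with at least 40 genes, for ITGB4-high over control clone 1 (filled circles), over control clone 3 (open squares) and for control clone 3 over clone 1 (crosses). The short arm of chromosome 17 stands at -0.86 and -0.90 and 3q at 0.36 and 0.34, while the controls differ by at most 0.10 on every arm drawn.

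The cells from lungs, labelled ITGB4 low, give another reference, in which ITGB4 stood at 470.2, 441 and 305 CPM (LM2 clone 1, LM2 clone 3 and bleomycin clone 1, the order used below). Of the 14 genes called against cultured controls, KRT75 was higher still in the lung libraries, at 273, 243 and 167 CPM against 75.5 in cultured ITGB4-high cells. RASIP1 was at 23.3, 26.8 and 22.6 CPM and CCDC91 at 9.98, 8.36 and 14.5, near their levels in ITGB4-high cells. S100A2 was at 27.9, 28 and 6.34 CPM and TGFB2 at 30.3, 31.4 and 39.2, between the cultured control and ITGB4-high levels. On a log scale FBN1 (19.97, 18.8 and 55.9 CPM), LOX (36.4, 38.4 and 25.7) and NEO1 (4.1, 4.34 and 4.86) lay nearer to the controls. In the bleomycin library FBN1 was above both controls. COL17A1 was at 9.91, 2.36 and 1.6 CPM and ALDH1A1 at 0.155, 0.255 and 0.064.

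ITGB4-high cells were also tested against these 3 lung libraries, and 17 of 15673 genes passed (0.108%), 12 higher (0.0766%) and 5 lower (0.0319%), with 2863 at an unadjusted p under 0.05. ALDH1A1 was higher in ITGB4-high cells (log2 fold change 7.10, SE 0.68, adjusted p = 0.0426, edgeR), as was the forkhead factor FOXQ1, at 32.7 CPM against 1.39, 2.43 and 2.56 in the lung libraries and 1.8 and 1.74 in the controls (3.93, adjusted p = 0.039). SEMA3E was at 11.6 CPM against 0.155, 0.192 and 0.064, and PPL, the envelope protein periplakin, at 10.5 against 0.232, 0.0638 and 0.256. The adhesion molecule CADM1 was at 67 CPM against 0.542, 0.83 and 0.384 in lung libraries, with the controls between at 13.1 and 4.59. MYO1D, a class I myosin, followed the same order (50.6 CPM, lung 3.02, 3.51 and 2.3, controls 24.6 and 19). NEO1, GAL, POLR1G, FBXO45, LINC02910 and LINC00632 were the others called higher. TGFB2 was lower in ITGB4-high cells than in lung libraries (-3.26, adjusted p = 0.039, edgeR), with PKNOX2 and SORCS2. XAF1, an interferon-induced gene, was at 0.292 CPM in ITGB4-high cells, 4.22 and 2.8 in controls and 57, 47.7 and 90.2 in lung libraries, and STAT5A at 0.51, 0.415 and 0.321, and 11.3, 10.7 and 8.96. ITGB4 itself did not pass this test (-0.08, adjusted p = 0.894, edgeR). Label, culture in a dish and passage through a lung go together in this comparison and cannot be told apart. With the clone as a block 0 genes passed in edgeR (2320 at an unadjusted p under 0.05), and 0 passed without control clone 1, control clone 3 or the bleomycin library (1807, 1789 and 2534 at an unadjusted p under 0.05).

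**Figure D5:**
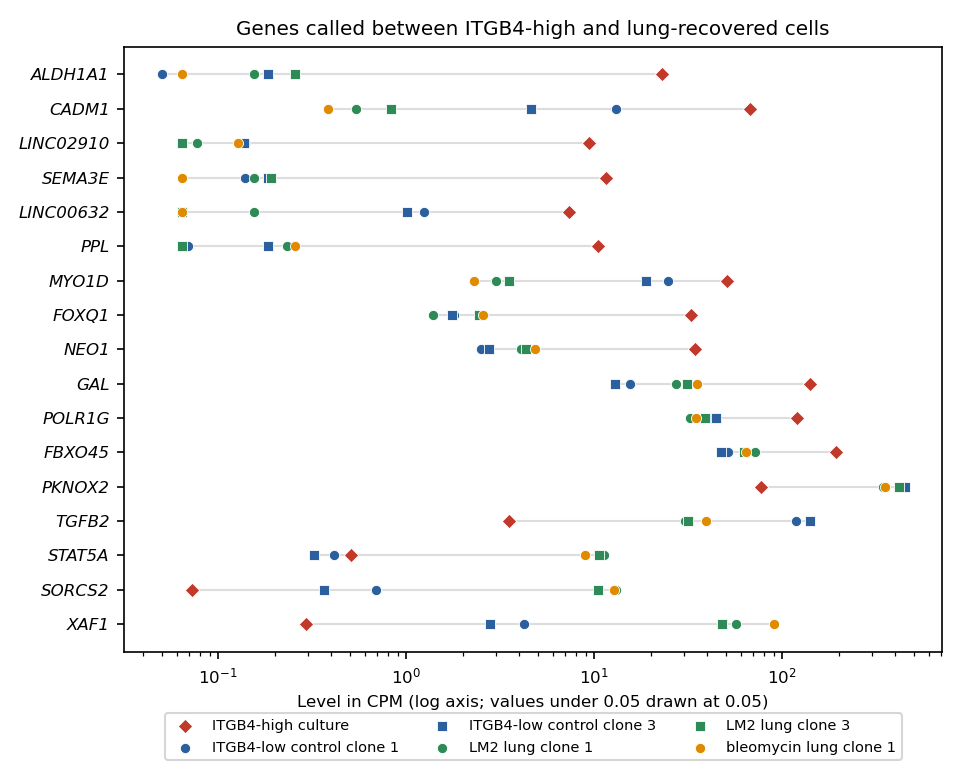
Level in CPM on a log axis, in all 6 libraries, of the 17 genes called between cultured ITGB4-high cells and lung-recovered cells labelled ITGB4 low. ALDH1A1, SEMA3E, FOXQ1, NEO1 and PPL are highest in the ITGB4-high library, TGFB2 is lowest there, and STAT5A, SORCS2 and XAF1 are high in the lung libraries.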

How the data were processed

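Poly(A) RNA was made into strand-marked libraries, per the labels' protocols, and the submitters' processing notes name STAR 2.7.1a and the build hg38. The authors deposited 1 table of whole-number counts, with 58336 gene identifiers, 58216 of which matched GENCODE release 29. How reads were assigned to genes, and with which strand setting, is not given in the sources used here, so counts of overlapping genes and of close paralogs such as the KRT6 keratins are uncertain. Samples were grouped by their titles.

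CPM were computed with TMM factors, and ratios between libraries with a prior count of 2. A gene met the fold rule at a log2 ratio of 1 or more in 1 direction against each control and 1 CPM or more in ITGB4-high cells or the control mean. The test was edgeR 4.0.16 (quasi-likelihood, R 4.3.3), on all 6 libraries in 4 groups, after filterByExpr at a minimum count of 10, with Benjamini-Hochberg adjustment over 15673 genes and a threshold of 0.05. A fit in 3 classes served the comparison with lung libraries. The control comparison was also run on simulated counts with the same spread in every gene and library. The pairs here differ in spread (coefficient of variation 0.0787 for control, 0.318 for LM2). That run therefore does not show how the test behaves on these libraries. Alternatives were RLE factors, no filter, DESeq2 1.42.0, limma-voom 3.58.1, cultured libraries only, each library left out and the clone as a block. Titles name the same clone for control and LM2 libraries of 1 number, which pairs them. Across 15673 genes the deviations of clone 3 from clone 1 in LM2 and in control libraries correlated at r = 0.00. The labels do not say that libraries came from separate cultures, so p-values cover the spread among these libraries only.

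Genes named were those called, the 15 highest and 15 lowest at 20 CPM or more, 27 core genes, and up to 4 members of each list at 5 CPM or more past 2-fold. Other list members were named after their values were seen, to show where a list was not uniform, and so were the genes called against lung libraries. The libraries compared and the gene lists were chosen with earlier results of these data known. Some genes that this rule names are not reported here. Promoter windows came from RefSeq.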

Additional observations from a re-analysis of the deposited data

How the results depend on the processing

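The number of genes called depended on the model. Against the cultured controls edgeR called 14 genes, and the same 14 were among those called with RLE factors (74), no low-count filter (2707), DESeq2 (1517), the cultured libraries only (6809) and the clone as a replicate block (363). Limma-voom called 2, S100A2 and ITGB4. Leaving out each library gave 0 to 6611 genes: 0 without either control, 6611 and 6422 without LM2 clone 1 or 3, and 13 without the bleomycin library. Against the lung libraries edgeR called 17, no filter 1406, DESeq2 1086, the replicate block 0, and leaving out each library 0 to 1432. The 2489 genes of the fold rule became 1000 at a 4-fold minimum and 1249 at 10 CPM, by construction, and 2488 with library totals, 2586 with a prior count of 0.5, 3207 against control clone 3 alone and 2836 against control clone 1 alone. Of single genes, the fitted log2 change of VIM ran from -0.0208 without control clone 1 to 0.0902 without control clone 3, and that of CD44 from -0.0803 to 0.147. The cause of the moves in the edgeR counts was not tested. With 1 ITGB4-high library, genes with few reads in 1 group carry wide counting intervals. With library totals in place of TMM the 2-fold counts differed for 3 of the 34 gene lists.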
